A study of Zea mays with 6 samples.

Results

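Cytokinin oxidase/dehydrogenase (CKX) genes encode the enzymes that break down cytokinins, the hormones that promote cell division in plant shoots. The genes described here are 5 rows of the deposited gene table, chosen by gene identifier, out of 39283 genes in all: GRMZM5G817173 (CKX4), GRMZM2G050997 (CKX2), GRMZM2G325612 (CKX5), GRMZM2G162048 (CKX8) and GRMZM2G348452 (CKX10). In the RefSeq gene table, a further 7 identifiers carry a ckx or cko symbol or synonym, and these were read beside the 5. Other genes without such a name were not read. The matched names leave gaps in the CKX numbering, so these 12 identifiers may not be the whole family. RefSeq names CKX2 cko2, as do the plots. It does not list GRMZM2G162048 and gives the name CKX8 to GRMZM2G114427 and GRMZM2G134634 instead, so that gene is called by its identifier below.

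RNA-seq was performed on shoots of greenhouse-grown maize seedlings of the inbred line B73, cut at 7 days of age. Control shoots were kept for 30 min in 1% DMSO, the solvent. The treated shoots were kept for 30 min in indole-3-acetic acid (IAA), the main natural auxin, in the same solvent, at a dose that the sample labels give as 100 mM and the methods of the study as 100 μM. There were 3 replicates of 3 plants per treatment, all of wild-type B73, but the table holds 1 pooled value per gene and treatment, in FPKM (fragments per kilobase of transcript, scaled to the number of mapped fragments). Values of single replicates were not analysed here, so the values below carry no error and no test was run on them. The authors' test over the replicates was not used here. The shoots were cut and immersed, so both groups share that handling, and no untouched seedlings are among the samples used here.

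CKX enzymes cleave the side chain of isopentenyladenine and zeatin, which ends the activity of these cytokinins. The family is known from maize, where the first CKX gene was cloned, and its members differ in where the enzyme is found: maize CKX1 is secreted to the apoplast, whereas maize CKX10 is cytosolic. Auxin and cytokinin act against each other in many shoot processes, and auxin can alter the amount of active cytokinin through its synthesis and its breakdown. In bulk shoot tissue, fewer cells of a type and less RNA per cell cannot be told apart.

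Genes that are abundant in green shoots were abundant in both pools. RBCS, the small subunit of Rubisco, was at 1559 FPKM in the DMSO pool and 1567 FPKM in the IAA pool. The 3 chlorophyll a/b-binding protein genes CAB1, CAB-M9 and CAB48 lay between 131 and 3929 FPKM in both. Of the known early auxin response genes, GH3 (GRMZM2G378106, an enzyme that conjugates auxin to amino acids) was 10.2-fold higher in the IAA pool, and saur3 and IAA12 were 8.07-fold and 2.74-fold higher. Genes whose mean FPKM reached 1 or more, with values above 0 in both pools, are called expressed genes below. Over these 22506 genes the median log2 ratio of IAA over DMSO was -0.038 and the central 90% lay between -0.59 and 0.53.

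CKX4 had the highest level of the 12 cytokinin oxidase identifiers in both pools. It lies on chromosome 3 from 191899705 to 191903570 (B73v3) and was at 34.9 FPKM after DMSO and 42.6 FPKM after IAA. Its control level was above that of 85.5% of the 30503 genes with a value above 0. The next of the 5 genes, CKX10, was at 11.9 FPKM after DMSO, so CKX4 stood 2.93-fold above it. After IAA the second of the 5 was CKX2, and CKX4 stood 4.40-fold above it.

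CKX10 lies on chromosome 1 from 207753174 to 207757725, and its level was 11.9 FPKM after DMSO and 8.44 FPKM after IAA. CKX2, on chromosome 3 from 152240440 to 152243093, was at 7.37 FPKM after DMSO and 9.69 FPKM after IAA. The order of these moderately expressed genes thus differed between the pools, with CKX10 above CKX2 in the control and below it after IAA. Whether either gap is beyond the spread between samples was not tested here.

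CKX5 and GRMZM2G162048 contributed next to nothing. CKX5, on chromosome 8 from 22250244 to 22254270, was at 0.0804 FPKM after DMSO and 0.0578 FPKM after IAA, a control level above that of only 8.69% of the genes with a value above 0. GRMZM2G162048, on chromosome 4 from 230722879 to 230724687, was listed at 0 in both pools. A level listed at 0 in a table without read counts does not show that the gene is silent. In all, 3 of the 5 genes were expressed genes by the limit above.

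**Figure D1:**
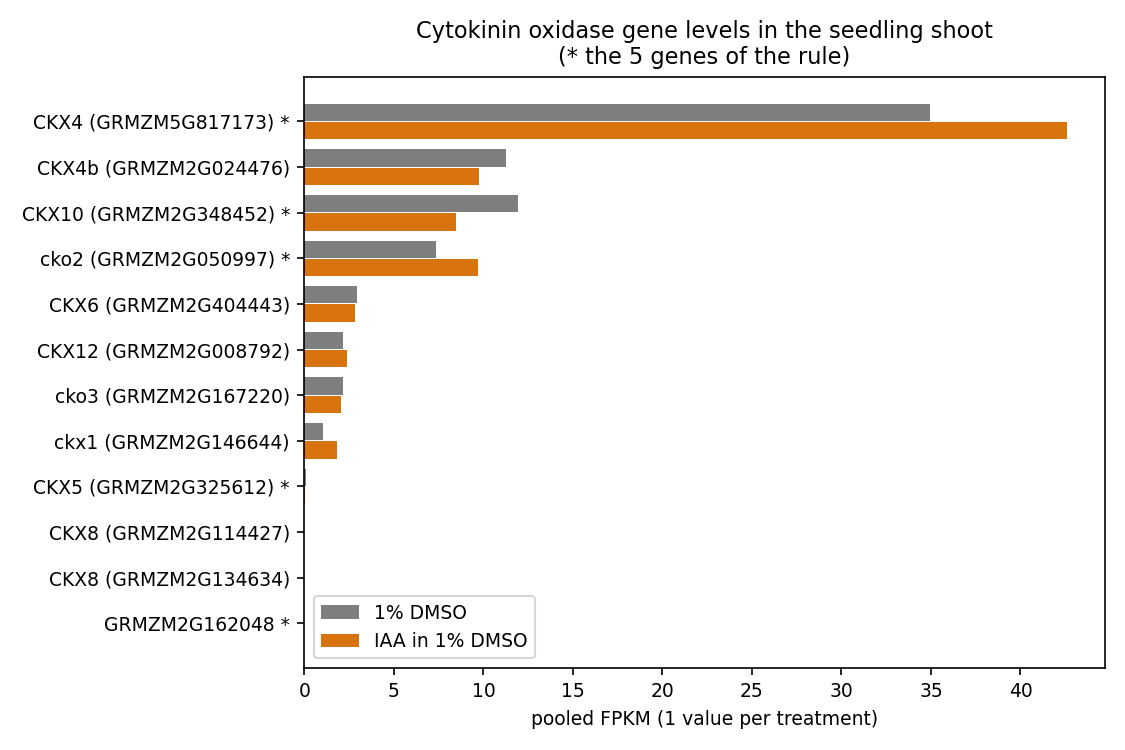
Pooled FPKM of the 12 cytokinin oxidase identifiers, with the control (1% DMSO) in grey and IAA in orange, 1 value per treatment and no error bars because the values are pooled. CKX4 stands at 34.9 and 42.6 FPKM, and no other gene exceeds 11.9 FPKM in either pool.

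The picture was similar when the other annotated cytokinin oxidase genes were added. CKX4b (GRMZM2G024476, on chromosome 8 from 171917567 to 171921620), which carries a name derived from CKX4, was at 11.2 FPKM after DMSO and 9.75 FPKM after IAA, close to CKX10. CKX6 (GRMZM2G404443), CKX12 (GRMZM2G008792) and cko3 (GRMZM2G167220) lay between 2.07 and 2.92 FPKM in both pools. CKX1 (GRMZM2G146644), the best studied enzyme of the family, was at 1.01 FPKM after DMSO and 1.83 FPKM after IAA. The listed locus of cko3 is also that of GRMZM2G467069, whose mean level was 24.2 FPKM, so how well their reads were separated is unknown. No other of the 12 loci overlaps another listed gene.

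Of the summed FPKM of the 5 genes, CKX4 held 64.3% after DMSO and 70.1% after IAA. CKX10 held 21.9% and 13.9%, and CKX2 held 13.6% and 15.9%. Over all 12 identifiers, CKX4 still held the largest share, with 47.4% after DMSO and 53.5% after IAA. CKX4, CKX10, CKX4b and CKX2 together made up 88.8% of the summed level of these identifiers after DMSO and 88.5% after IAA. These 4 genes therefore held most of the summed level in both pools, while their proportions differed.

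**Figure D2:**
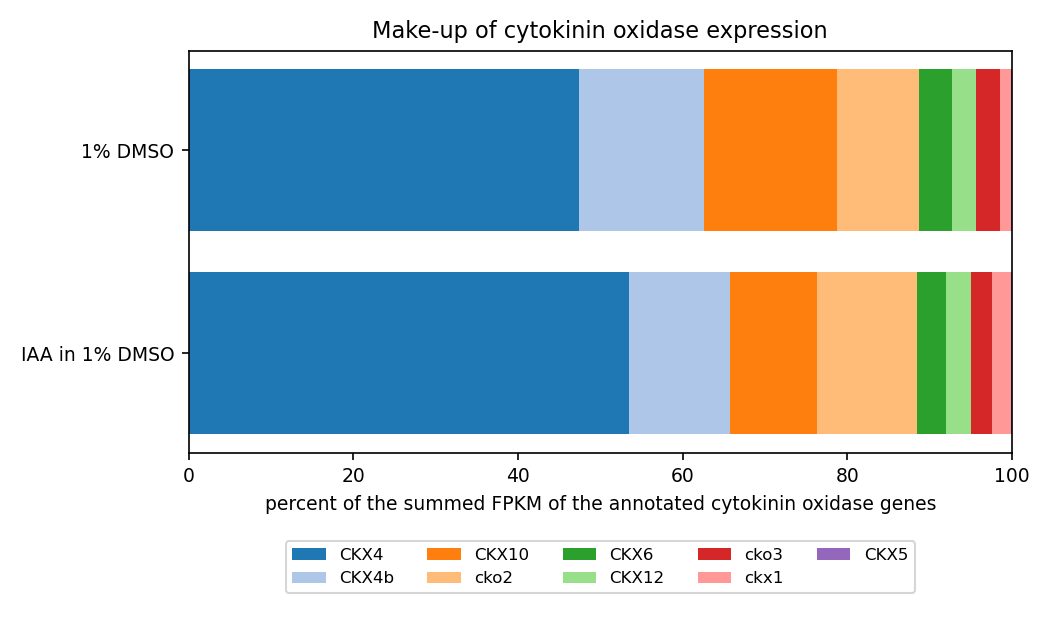
Share of each gene in the summed FPKM of the annotated cytokinin oxidase genes (x axis, percent), for the DMSO pool (upper bar) and the IAA pool (lower bar). The CKX4 segment spans 47.4% of the DMSO bar and 53.5% of the IAA bar, and the CKX10 segment 16.2% and 10.6%.

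To compare the treatments, the log2 ratio of the IAA value over the DMSO value was taken for each gene, with no pseudocount. CKX4 had a log2 ratio of 0.29, or 1.22-fold, and CKX2 had 0.39, or 1.31-fold, so both were higher in the IAA pool. CKX10 was lower, with a log2 ratio of -0.50, which left 70.9% of its control level. CKX5 also had a lower value after IAA, with a log2 ratio of -0.48, but both of its levels were under 0.1 FPKM. GRMZM2G162048 has no ratio. The genes were thus neither all higher nor all lower after IAA.

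None of the 3 expressed genes was past 2-fold in either direction. Over all expressed genes, 0.938% were more than 2-fold higher and 1.40% more than 2-fold lower in the IAA pool. At a limit of 1.5-fold, which 4.10% of all expressed genes passed upward and 5.18% downward, none of these 3 genes was called either. A count of 0 of 3 is what shares of this size would usually give, so it says little about the family.

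Set beside genes of like abundance, CKX10 and CKX2 lay toward opposite ends. Among the 8962 genes with a mean FPKM within 2-fold of that of CKX10, 5.09% had a lower log2 ratio. For CKX2, 92.4% of 8898 such genes had a lower log2 ratio, and for CKX4, 89.7% of 5284. A difference at least as large as that of CKX4, in either direction, was listed for 26.3% of the genes of like abundance, against 16.7% for CKX2 and 9.56% for CKX10. These values place the genes among others in the same pools and are no test of the treatment.

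**Figure D3:**
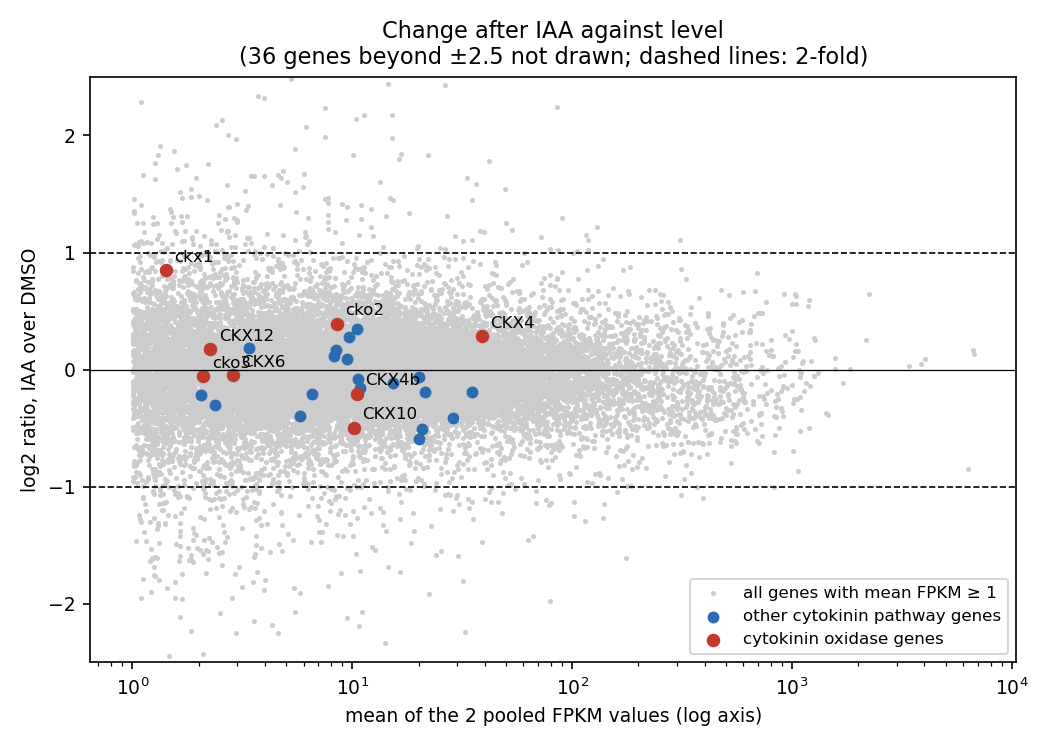
Log2 ratio of IAA over DMSO (y axis) against the mean of both pooled FPKM values (x axis, log scale) for expressed genes (grey, mean FPKM of 1 or more), with cytokinin oxidase genes in red and other cytokinin pathway genes in blue. All red and blue points lie between the dashed 2-fold lines, CKX10 being the lowest red point at -0.50 and CKX1 the highest at 0.85.

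The differences of single genes partly offset each other in the summed level. For the 5 genes, the summed level was 54.3 FPKM after DMSO and 60.8 FPKM after IAA, a difference of 6.46 FPKM. CKX4 accounted for 7.64 FPKM of higher level and CKX2 for 2.31 FPKM, whereas CKX10 was lower by 3.47 FPKM. Summed over all 12 identifiers, the level was 73.8 FPKM after DMSO and 79.6 FPKM after IAA, or 1.08-fold. The net difference over these identifiers was therefore small beside that of the auxin response genes above, and the difference of CKX4 alone exceeded it.

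CKX4 and CKX4b differed in sign, with log2 ratios of 0.29 and -0.21. CKX4 was 3.11-fold above CKX4b after DMSO and 4.37-fold above it after IAA. If these genes share sequence, reads could have been assigned to either, which was not tested. Their summed level was 46.2 FPKM after DMSO and 52.3 FPKM after IAA, with a log2 ratio of 0.18. This sum is free of such an assignment only if the reads stay within the pair and both transcripts are equally long. Transcript lengths were not compared.

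The largest ratio among the expressed cytokinin oxidase identifiers belonged to a gene at low level. CKX1 was 1.80-fold higher in the IAA pool, a log2 ratio of 0.85, and was the only one of the 8 expressed cytokinin oxidase identifiers that was past 1.5-fold. Of the genes with like abundance, 9.15% had a difference at least as large. With 1 FPKM added to both values its log2 ratio was 0.49, under the 1.5-fold limit. Among these 8 identifiers, 4 had a ratio above 0 (CKX4, CKX2, CKX12 and CKX1) and 4 below 0 (CKX10, CKX4b, CKX6 and cko3). The signs of CKX6 and cko3, at -0.050 and -0.053, turned when the pools were rescaled to the same total.

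By position, the annotated genes fell on 5 chromosomes. Most were far apart, with CKX2 and CKX4 separated by 904 other listed genes on chromosome 3. The exception was chromosome 4, where GRMZM2G114427, GRMZM2G134634 and GRMZM2G162048 lay within 166 kb. No gene is listed between the last pair of these, which are 72.8 kb apart, and 2 genes lie between the first pair. All 3 were listed at 0 in both pools, and the 2 genes between them did not exceed 0.0504 FPKM in either pool.

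Expression was found at the edges of that stretch. GRMZM2G161969, which starts 2742 bp after GRMZM2G162048, was at 50.5 FPKM after DMSO and 42.8 FPKM after IAA. On the other side, the nearest expressed gene, GRMZM2G413069, ended 44981 bp before the stretch and was at 17.0 FPKM and 17.4 FPKM. GRMZM2G114427 and GRMZM2G134634 have loci of equal length, 1825 bp, and share 1 RefSeq entry. Reads that match both equally well could not be assigned to 1 of them, but both were listed at 0, so no listed level was there to divide.

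The rest of the cytokinin pathway was read from 23 identifiers that the RefSeq gene table names as genes of synthesis, conjugation, perception or signalling. Of these, 19 were expressed genes, none was past 2-fold, and 1 was past 1.5-fold downward, beside 5.18% of all expressed genes. Their median log2 ratio was -0.16, against -0.038 over all expressed genes, with 6 above 0 and 13 below 0. Over all expressed genes, 10007 were above 0 and 12498 below 0. For the 8 expressed cytokinin oxidase identifiers the median was 0.062.

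Only 2 synthesis and 2 conjugation identifiers were matched by name, and no activation gene, so most of these steps may be unseen. Transcripts of the matched genes were scarce beside CKX4. IPT1 (GRMZM2G097258), an isopentenyltransferase by name, was at 2.21 FPKM after DMSO and 1.91 FPKM after IAA. IPT4 was listed at 0 in both pools. czog1 (GRMZM2G168474), which attaches glucose to cis-zeatin, was at 2.62 FPKM after DMSO and 2.13 FPKM after IAA, a log2 ratio of -0.30. The other conjugation gene was below the limit for expressed genes and differed in the other direction, at 0.630 FPKM after DMSO and 0.868 FPKM after IAA.

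All 3 cytokinin receptor histidine kinases were somewhat higher in the IAA pool, with log2 ratios from 0.090 to 0.28, the highest being HK1 (GRMZM2G151223) at 8.71 FPKM after DMSO and 10.6 FPKM after IAA. The 3 phosphotransfer proteins, which carry the signal to the nucleus, were all lower. Over all expressed genes, 10007 were above 0 and 12498 below 0, so 3 genes with the same sign say little about a role. For the receptors, 27.8% to 71.3% of the genes of like abundance had a difference at least as large, in either direction. For the phosphotransfer proteins the shares were 5.35% to 43.9%. HP2 (GRMZM2G014154) was the most abundant phosphotransfer gene, at 37.5 FPKM after DMSO and 32.8 FPKM after IAA. HP1 (GRMZM2G016439), at 24.2 FPKM and 16.1 FPKM, had the lowest log2 ratio of the pathway at -0.59 and was the gene past 1.5-fold, a limit it no longer passed with the pools rescaled to the same total (-0.53), the median of all genes set to 0 (-0.55) or 1 FPKM added (-0.56).

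Response regulators are the last step of the pathway, and several of them are induced quickly by cytokinin. The matched identifiers were not sorted by this property, so the counts here are not those of cytokinin-induced genes alone. Of 11 expressed response regulator identifiers, 8 had a ratio below 0 and 3 above 0, with a median of -0.12 and a range from -0.51 to 0.34, beside the 12498 of 22506 expressed genes below 0. crr1 (GRMZM2G040736), the most abundant, was at 32.9 FPKM after DMSO and 24.7 FPKM after IAA, a log2 ratio of -0.41. crr2 (GRMZM2G392101) was at 24.2 FPKM and 17.0 FPKM, a log2 ratio of -0.51, close to that of CKX10. Of all 13 response regulator identifiers, 4 are joined under the single RefSeq name crr5, so they may not be separate genes. Their listed loci do not overlap. The highest ratio, 0.34, belongs to 1 of these 4, and another was listed at 0 in both pools.

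**Figure D4:**
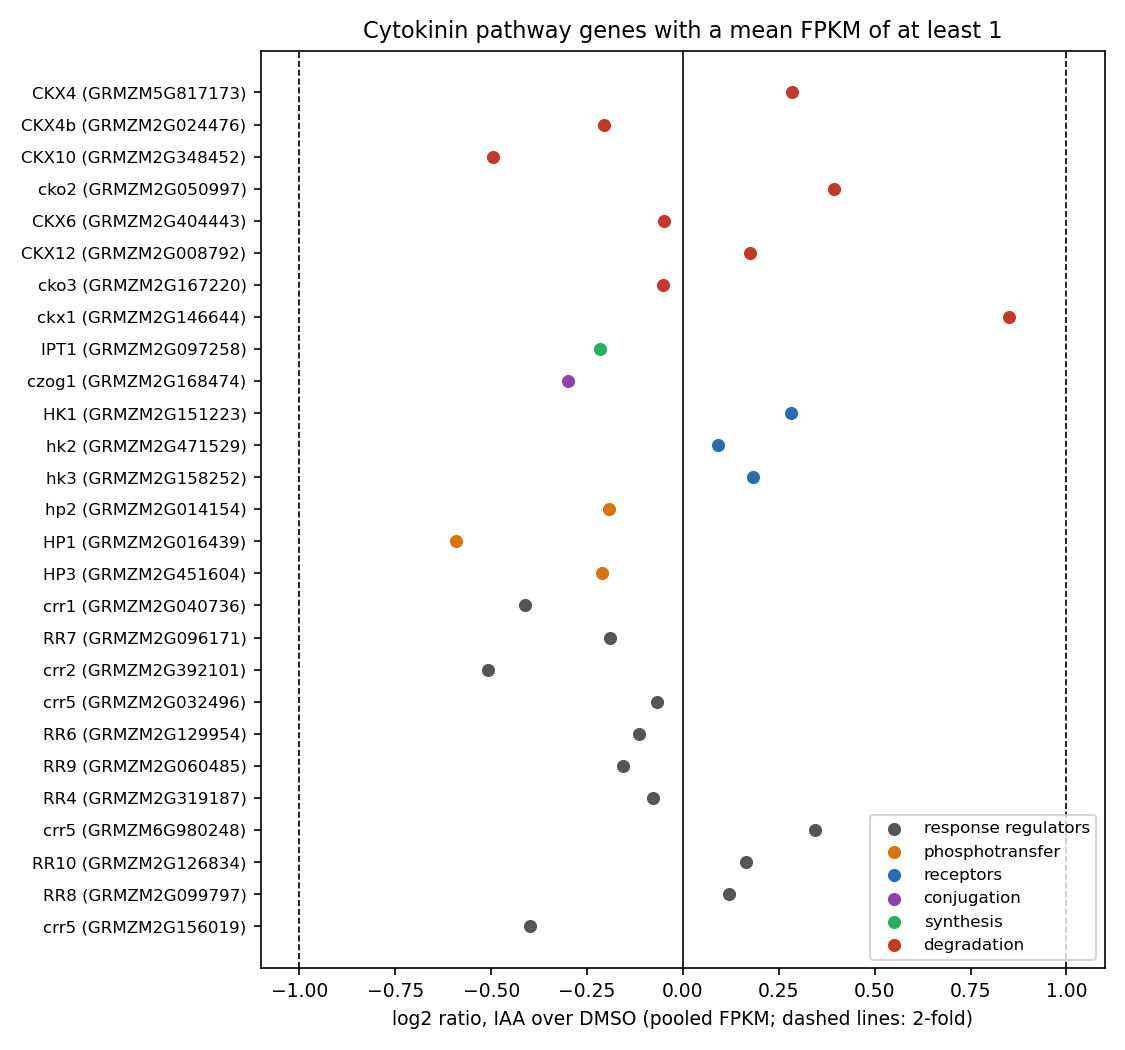
Log2 ratio of IAA over DMSO (x axis) for cytokinin pathway identifiers among the expressed genes, ordered by role and, within a role, by level, with dashed lines at 2-fold. The receptors lie at 0.090 to 0.28 and the phosphotransfer proteins at -0.59 to -0.19, while the cytokinin oxidase genes spread from -0.50 to 0.85.

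With 1 value per treatment, likeness to CKX4 can be measured only over 2 points. The named gene nearest to CKX4 in its pair of log2 FPKM values was TUBB3, a beta-tubulin gene, at 37.2 FPKM after DMSO and 44.2 FPKM after IAA and a distance of 0.11 on the log2 scale. The next were pco060792 and BIPE2, a chaperone of the endoplasmic reticulum, at 0.17 and 0.18. Of the 29616 genes compared, with or without a name, 48 lay within 0.1 of CKX4, so a pair of values like its own was not unique to it.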

How the data were processed

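Stranded libraries were trimmed (trimmomatic), aligned to B73v3 (TopHat2 2.1.1, default settings) and compared with Cuffdiff 2.2.1 by the authors, according to their methods and the submitters' processing notes. The deposited FPKM values are Cuffdiff's, 1 per gene and treatment over 3 replicates. The gene annotation and strand setting of the RNA-seq quantification and the Cuffdiff options are not given in the sources used here. The table also holds the authors' own comparison (log2 fold change, test statistic, p-value, q-value, test status), computed over the replicates, which was not used. Depth and precision are unknown, since no read counts accompany the values and the lowest of them were not spaced by whole reads.

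From the FPKM values, log2 ratios (no pseudocount), shares and counts past 2-fold were computed for genes whose mean FPKM reached 1 or more with both values above 0. The log2 ratios, the counts past 2-fold, the percentile ranks and the search for nearest genes were tested on simulated data. Shares, sums and the matching of names were not. Names came from the RefSeq table of Zm-B73-REFERENCE-NAM-5.0, which holds 18995 of the identifiers. Its positions were not used, and its gene lengths served only for a check of the locus starts. Names were matched by symbol (cytokinin oxidase genes as ckx or cko, with or without a number or letter), so genes without such a symbol were missed, and a gene listed as IPT with no number was left out. No activation gene matched. Each locus start was shifted by 1 so that positions count from 1. Of 18994 loci compared, 637 then had the RefSeq length, against 67 without the shift, so most matched neither way. Gene, protein and promoter sequences were not analysed here.

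Genes named were the annotated cytokinin oxidase genes, the pathway genes past 2-fold or highest in level or largest in absolute log2 ratio in their role, the 3 named genes nearest to CKX4 and 3 auxin response genes. The remaining receptor and response regulator genes are given as counts. The photosynthesis genes, the genes around the chromosome 4 stretch and the overlapping gene of cko3 were added after the files were read. The members and lists were chosen with earlier results of these data known. Computations used pandas 2.3.3 and numpy 2.4.6 under Python 3.11.15, with matplotlib 3.10.9 for the plots.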

Additional observations from a re-analysis of the deposited data

How the results depend on the processing

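No paired analysis was possible because each treatment is represented by 1 pooled FPKM per gene. The replicate block and the removal of replicates were therefore not run. With no spread between replicates, a log2 ratio was taken as moved at a difference of 0.1 and a share at 5 percentage points. Rescaling both pools to the same total raised every log2 ratio by 0.064, and setting the median of all genes to 0 raised it by 0.038. CKX4, CKX2 and CKX10 kept their signs under these settings and with 0.1 or 1 FPKM added, CKX4 between 0.28 and 0.35. CKX5 went from -0.48 to -0.19 with 0.1 FPKM added and to -0.030 with 1 FPKM, by construction of a pseudocount at levels under 0.1 FPKM. The DMSO share of CKX4 was 64.3% of the 5 genes and 47.4% of the 12 identifiers, and 70.1% of the 5 genes after IAA. For CKX10 these were 21.9%, 16.2% and 13.9%. Past 2-fold, no pathway gene was counted under any scaling, pseudocount or filter tried, and at 1.5-fold 1 (HP1) was lower. Over all genes, 211 were higher and 314 lower past 2-fold. On the scale with equal totals these were 263 and 265, so the excess of lower genes was nearly gone, and with the median set to 0 they were 240 and 281. They were 108 and 156 with 1 FPKM added, 922 and 1165 at 1.5-fold, 93 and 127 where the mean FPKM reached 5, and 1190 and 1283 with no filter on level.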
